A study of Mus musculus with 14 samples.

Results

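The 10 genes described here encode the ligands, receptors and binding proteins of the insulin-like growth factor (IGF) system: Igf1, Igf2, Igf1r, Igf2r, Igfbp2, Igfbp3, Igfbp4, Igfbp5, Igfbp6 and Igfbp7. They were chosen by name, and all 10 were found among the 15894 genes of the expression table. RNA was measured in the epicardium/subepicardium, the thin outer layer of the heart and the tissue just beneath it, dissected from the ventral or the dorsal side of fetal mouse hearts at E16.5. Female hearts gave 3 ventral and 3 dorsal libraries (numbers 1 to 3), and male hearts gave 4 ventral (numbers 4 to 7) and 3 dorsal libraries (numbers 4 to 6). Each library held polyA RNA of 2 pooled hearts, so p-values measure the spread between libraries of such pools. All hearts were untreated and carried the label Tbx18Cre, a line in which the Tbx18 gene drives Cre recombinase in the epicardium, while the study describes the hearts as wild type. One more male library, number 7, is dorsal in its title and ventral in its tissue field, and it entered no regional test. Values are normalized CPM, that is read counts scaled to the effective size of the library, and a change is a difference of log2(normalized CPM + 1) tested with limma and adjusted over all genes by the Benjamini-Hochberg method, with 0.05 as the limit for a call.

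IGF1 and IGF2 are small secreted growth factors that act through the type 1 receptor IGF1R, a tyrosine kinase which feeds the PI3K-AKT and MAP kinase cascades. IGF2R, also known as the mannose 6-phosphate receptor, binds IGF2 and carries it to the lysosome without signaling, so it works as a sink for the ligand. The binding proteins hold IGFs in the extracellular space, and proteases such as PAPP-A cut them and free the ligand. In the fetal heart, IGF2 made by the epicardium is known as a growth signal for the underlying cardiomyocytes. Igf2 is expressed from the paternal allele, and Igf2r and H19 mainly from the maternal one.

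Some libraries stood apart, and this bears on the values that follow. The libraries held 13.9 to 25.2 M reads on the listed genes. The 3 female ventral libraries held 17672 to 21846 normalized CPM of mt-Rnr2, a mitochondrial ribosomal RNA, against 1173 to 3211 in the other 11 libraries, a feature looked up after values were seen. The 10 epicardial markers (Wt1, Tbx18, Upk3b and others) summed to 296 to 630 normalized CPM in female dorsal libraries, 1758 to 2854 in female ventral, 1966 to 5898 in male ventral and 1613 to 4234 in male dorsal ones. All 10 were called higher ventrally in females and none in males. In females, 5 of 8 fibroblast markers (summed level 11545 to 22103 ventrally, 2904 to 4547 dorsally), 5 of 6 macrophage markers (149 to 283 against 51.0 to 85.7) and 3 of 6 lymphatic endothelial markers (238 to 1896 against 102 to 290) were also higher ventrally, while 3 of 6 smooth muscle markers were lower (745 to 1151 against 1269 to 1575) and 1 was higher. Markers of ventricular cardiomyocytes were abundant in every library (18413 to 48474). Female dorsal library 1 held 12455 normalized CPM of atrial markers (4 of 5 were among the genes listed) against at most 1992 elsewhere. Male ventral library 7 held 291 of erythroid markers (3 of 6 were listed) against at most 122. The part of these features in the changes of IGF genes was not tested. A fit with the epicardial genes as a covariate was made, but in females that covariate nearly equals region. The markers also differed between the sexes, with 5 of the 10 called higher in males. Calls lost or kept under this covariate therefore cannot show the epicardial part in any comparison that involves females. In bulk tissue, fewer cells of a type cannot be told apart from less RNA per cell. Since the sexes carry separate series of numbers and no label names a preparation date, sex and preparation cannot be told apart either. The female ventral and female dorsal libraries also carry separate runs of sample numbers in their titles, whose meaning is not given. Whether region and preparation can be told apart in females is therefore not known.

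**Figure D1:**
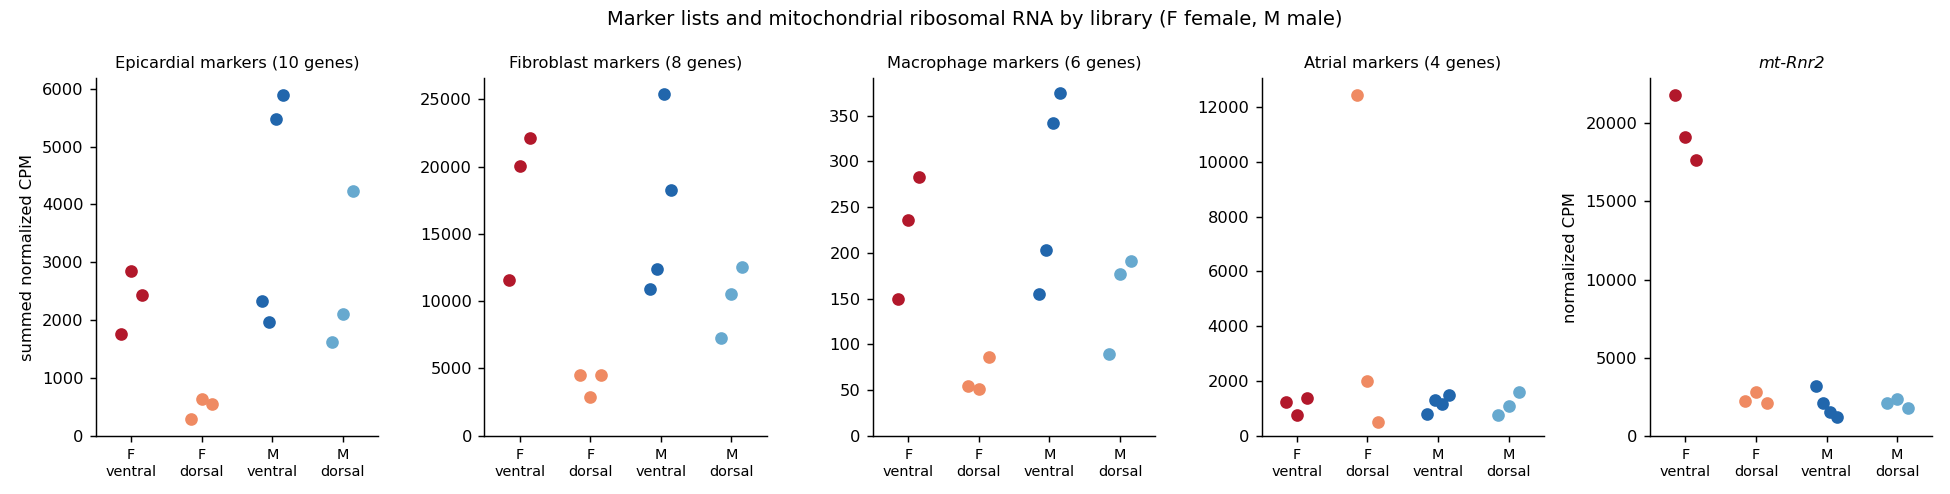
Summed normalized CPM of 4 marker lists and normalized CPM of mt-Rnr2 (vertical axes) in each library (points) of the 4 groups (horizontal axis). The female dorsal libraries sit lowest for epicardial, fibroblast and macrophage markers, 1 of them holds 12455 of atrial markers, and the 3 female ventral libraries stand apart for mt-Rnr2 at 17672 to 21846.

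In female hearts the IGF genes were on balance higher on the ventral side. Igf2, Igf1r, Igf2r, Igfbp4 and Igfbp6 were called higher ventrally and Igfbp7 was called higher dorsally, 6 of 10 members where 27.8% of the 14411 genes tested were called (14.5% ventrally and 13.3% dorsally). With the mean of the 10 epicardial genes as a covariate, an alternative chosen after the data were seen, none of the members was called, and 22 genes were. That covariate nearly equals region in females, where the epicardial sums of the regions do not overlap, so the lost calls cannot decide the epicardial part. Under it the log2 change shrank for Igf2 (0.46), Igf1r (0.38), Igfbp4 (1.49) and Igfbp6 (0.50). It grew in size for Igf2r (0.93) and Igfbp7 (-1.74). The members' median change was 0.69 on the log2 scale, beside 0.01 over all genes tested. In male hearts none of the 10 was called, and none of the 14917 genes tested was called either (0%; 2083 had an unadjusted p under 0.05 with limma, and a count test with edgeR also called 0 genes), although 76 genes but no member passed once library numbers were blocked. The ranges of ventral and dorsal libraries were separate for 7 members in females, 6 higher ventrally and 1 higher dorsally, against 44.8% of all genes (23.2% and 21.6%). In males they were separate for 2 members, both higher ventrally, against 14% of all genes (6.18% ventral higher and 7.82% dorsal higher).

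**Figure D2:**
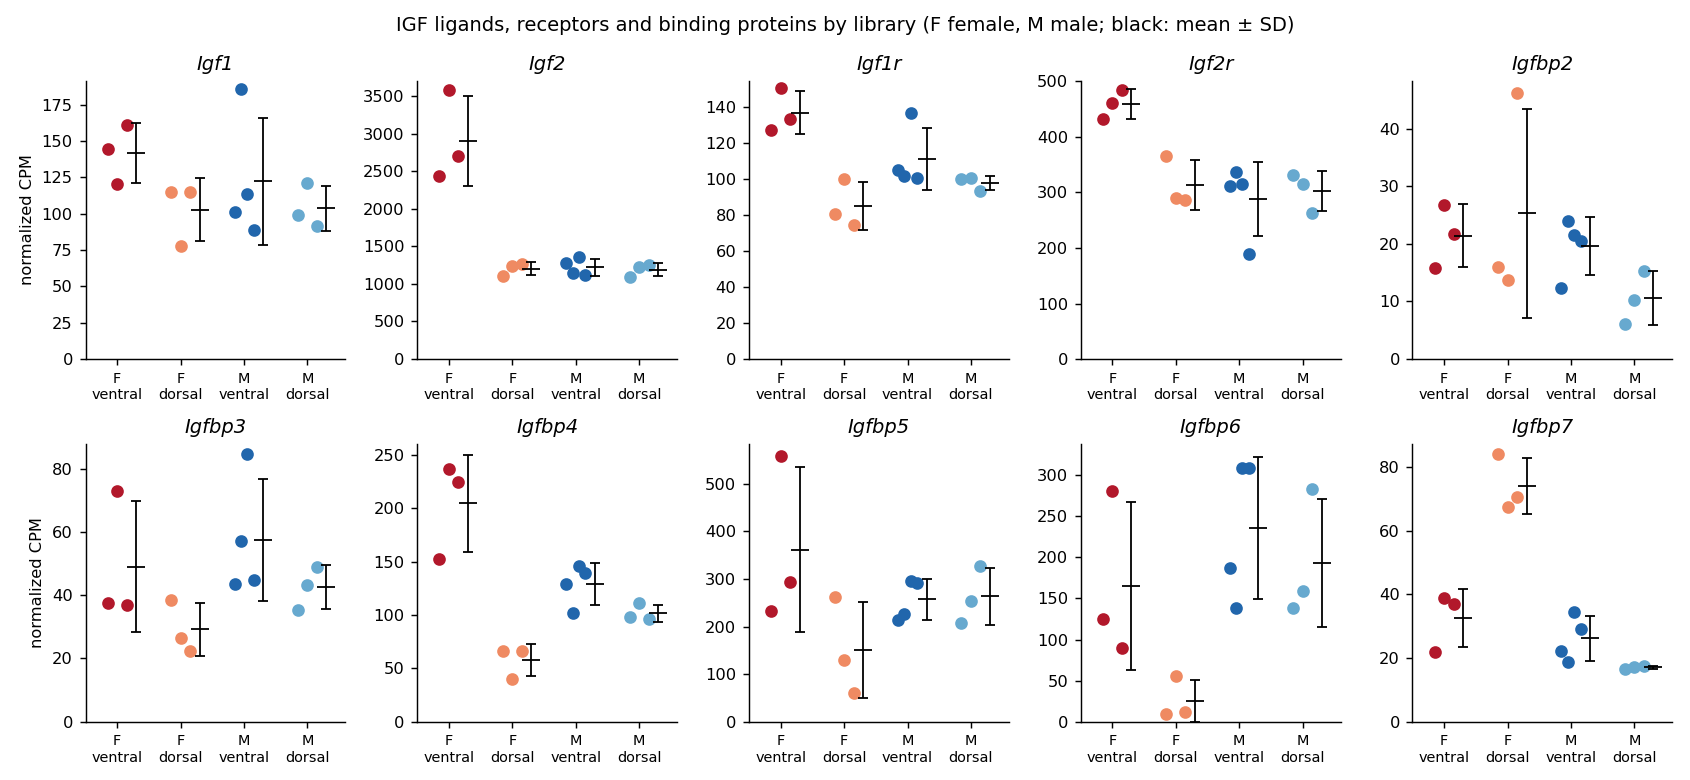
Normalized CPM (vertical axis, from 0) of each of the 10 members in every library (points) of the 4 groups (horizontal axis), with the mean ± SD in black; the lower bar of Igfbp6 in female dorsal libraries is cut at 0. Igf2 is high in the 3 female ventral libraries alone, Igfbp6 is low in the 3 female dorsal ones, and Igfbp7 is high in these.

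Igf2 (ENSMUSG00000048583; chromosome 7 of GRCm38, 142650766 to 142666816, minus strand) was the ligand with the clearest regional pattern. In female ventral libraries it measured 2432, 3579 and 2702 normalized CPM, and in female dorsal libraries 1102, 1237 and 1268. Male ventral libraries gave 1282, 1147, 1354 and 1116, and male dorsal libraries 1088, 1227 and 1257. The female ventral libraries thus stood above all others without overlap, while female dorsal and male libraries shared one narrow range. The female ventral mean was 2.42 times the dorsal one, from 2.13 to 2.89 times in the 3 same-numbered pairs. The log2 change was 1.25 in females (standard error, SE, 0.214, adjusted p = 0.00328) and 0.04 in males (0.162, adjusted p = 0.930), with a 95% interval of -0.32 to 0.40 in the latter. The difference between these changes was itself called (-1.22, SE 0.242, adjusted p = 0.0127), in a comparison that called 2.73% of 15772 genes (2.12% above 0 and 0.615% below). With the epicardial covariate it just missed a call (-1.04, adjusted p = 0.0503).

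H19, a noncoding RNA that lies 72.6 kb from Igf2 and shares its enhancers and imprinting control, is no member but is the natural neighbour to read beside it. It reached 1857, 2620.1 and 2894 normalized CPM in female ventral and 384, 402 and 688 in female dorsal libraries. Male ventral libraries held 1147, 658, 1079.7 and 1749, and male dorsal ones 461, 626 and 769.6. Female ventral libraries again stood highest, but here the male regions were also further apart, with 0.85 on the log2 scale (SE 0.304), which was not called (adjusted p = 0.305), beside 2.35 in females (0.263, adjusted p = 6.14e-04). The regional change of H19 differed between the sexes by -1.5 (adjusted p = 0.0951, not called), and this difference was called once library numbers were blocked (-1.72, adjusted p = 0.00445). With the epicardial covariate the difference was smaller and not called (-0.65, adjusted p = 0.397). Of the distinct 60-base windows of Igf2 transcripts, 60.8% occur also in Gm49394, a gene model that was not tested here, and Igf2os overlaps Igf2 on the opposite strand. RSEM, the counting tool, divides reads shared between transcripts by a statistical estimate, and the strand setting is not given in the sources used here, so the Igf2 values are uncertain to that extent.

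Igf1 (chromosome 10, 87858265 to 87937042, plus strand), the ligand better known for growth after birth, differed less. It reached 145, 120.2 and 161 normalized CPM in female ventral libraries and 115, 77.6 and 115 in female dorsal ones. In males the ventral libraries gave 101, 186, 114 and 88.5 and the dorsal ones 98.8, 121 and 91.4. The female ranges were separate and the ventral mean 1.38 times the dorsal one, but the difference of 0.48 on the log2 scale (SE 0.185) did not pass (adjusted p = 0.0817) and passed only under the block (adjusted p = 0.0332). The male ranges overlapped, with a log2 change of 0.19 (0.237, adjusted p = 0.741). Per kb of transcript, Igf2 stood above Igf1 in every library, 31.5 ± 11.2 times in female ventral, 18.2 ± 4.99 in female dorsal, 16.2 ± 4.68 in male ventral and 17.4 ± 2.83 in male dorsal libraries (mean ± SD, n = 3, 3, 4 and 3).

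Both receptors were called higher ventrally in females, by smaller amounts. Igf1r (chromosome 7, 67952827 to 68233668, plus strand) stood at 127, 150.4 and 133 normalized CPM in female ventral and 80.5, 99.8 and 74.5 in female dorsal libraries, a log2 change of 0.69 (SE 0.150, adjusted p = 0.00923). Its male libraries gave 105, 102, 136 and 101 ventrally and 99.7, 100.4 and 93.2 dorsally, ranges that just fail to overlap around a change of 0.17 that was not called (adjusted p = 0.612). Igf2r (chromosome 17, 12682406 to 12769664, minus strand) stood at 432, 461 and 485 in female ventral and 365, 289.9 and 286 in female dorsal libraries, a log2 change of 0.56 (0.148, adjusted p = 0.0212). Male ventral libraries held 312, 336, 315 and 189.8 of Igf2r and male dorsal ones 332, 315 and 263, with a change of -0.10 (adjusted p = 0.847). The female ventral libraries were thus the highest for Igf2r as they were for Igf2. Calls of both receptors were lost when the trend on GC content and transcript length was removed from each library (log2 changes of 0.24 for Igf1r and 0.16 for Igf2r), and that of Igf2r also without any one of female ventral libraries 2 and 3 and female dorsal libraries 2 and 3 (0.49 to 0.55).

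Set side by side per kb of transcript, Igf2r exceeded Igf1r in all groups, 4.33 ± 0.374 times in female ventral, 4.83 ± 1.05 in female dorsal, 3.36 ± 0.820 in male ventral and 3.98 ± 0.331 in male dorsal libraries. The ratio of Igf2 to Igf2r was 11.9 ± 2.36 in female ventral and 7.35 ± 1.46 in female dorsal libraries, beside 8.33 ± 1.96 and 7.50 ± 1.42 in male ventral and dorsal ones. The female ventral libraries (10.5 to 14.6) did not overlap with the female dorsal libraries (5.68 to 8.33) in that ratio, while the male groups did.

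**Figure D3:**
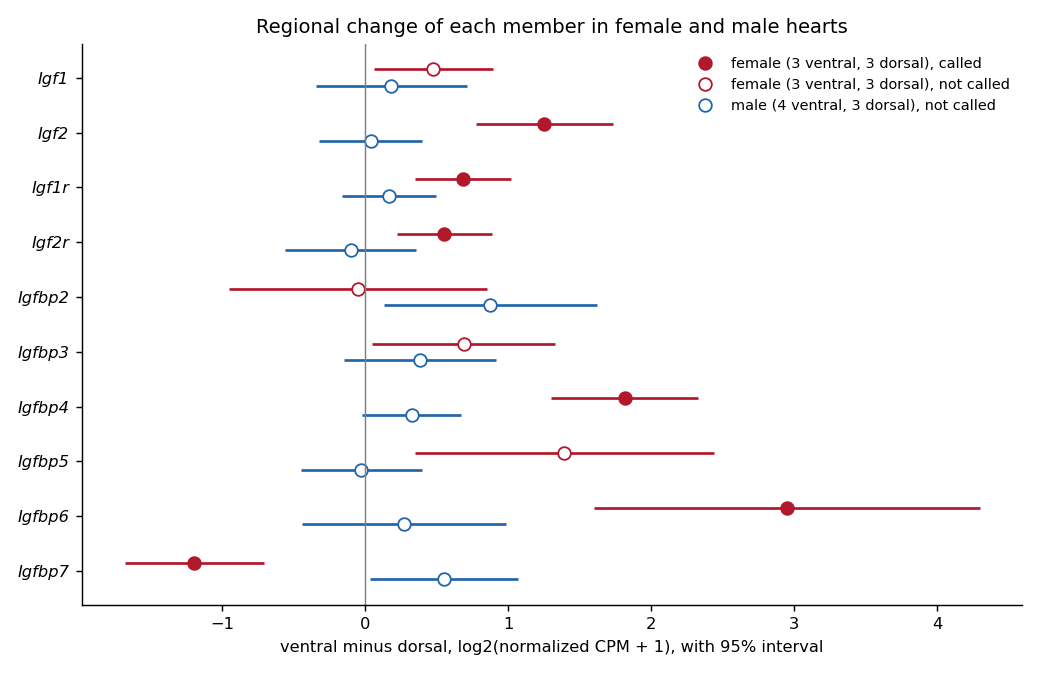
Ventral minus dorsal change of each member (horizontal axis, difference of log2(normalized CPM + 1), with its 95% interval) in females (red, 3 and 3 libraries) and males (blue, 4 and 3 libraries); filled points were called and open ones were not. Changes in females run from -1.19 for Igfbp7 to 2.95 for Igfbp6, and no male point is filled.

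The binding proteins held the largest changes and the one in the opposite direction. Igfbp6, which prefers IGF2 over IGF1, changed most. It lies on chromosome 15 (102144362 to 102149511, plus strand) and measured 125, 281 and 89.2 normalized CPM in female ventral libraries but 8.98, 55.2 and 11.4 in female dorsal ones. Male ventral libraries gave 187, 138, 309 and 308, and male dorsal libraries 138, 159 and 283. The 3 female dorsal libraries were the lowest of all, and the other groups overlapped. The log2 change was 2.95 in females (SE 0.604, adjusted p = 0.00697), with the ventral library 5.08 to 13.9 times its same-numbered dorsal one, and 0.27 in males (0.321, adjusted p = 0.715). The difference between the sexes, -2.67, was not called (0.768, adjusted p = 0.0852) and was called under the block on library number (-2.83, adjusted p = 1.50e-04). With the epicardial covariate it was smaller and not called (-1.48, adjusted p = 0.338). The summed epicardial, fibroblast and macrophage markers were each likewise lowest in the 3 female dorsal libraries.

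Igfbp4 (chromosome 11, 99041244 to 99054392, plus strand), the main substrate of PAPP-A, had 153, 237 and 224 normalized CPM in female ventral and 66.6, 40.5 and 66.4 in female dorsal libraries. Male ventral libraries held 129, 102, 146 and 139, and male dorsal ones 97.9, 111 and 96.5. Female ventral libraries were the highest and female dorsal the lowest of the 4 groups, with the males between them and both male regions overlapping. The log2 change of 1.81 in females (SE 0.229, adjusted p = 8.95e-04) corresponded to 3.54 times the dorsal mean, and the change in males was 0.33 (0.156, adjusted p = 0.381). The difference of -1.49 between the sexes was called (0.290, adjusted p = 0.0109), but not with the epicardial covariate (-1.27, adjusted p = 0.0514).

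Igfbp7 (chromosome 5, 77349240 to 77408041, minus strand) ran the other way. This protein, also called IGFBP-rP1, binds IGFs only weakly and is known as a matrix protein of blood vessels. It stood at 22.0, 38.9 and 36.9 normalized CPM in female ventral libraries against 83.9, 67.4 and 70.5 in female dorsal ones. Males gave 22.3, 18.9, 34.6 and 29.0 ventrally and 16.6, 17.2 and 17.4 dorsally. The female dorsal libraries stood above all others, and the male ranges were separate in the opposite direction, with the ventral side higher. The log2 change was -1.19 in females (SE 0.218, adjusted p = 0.00437), with a dorsal mean 2.27 times the ventral one, and 0.55 in males, which was not called (0.233, adjusted p = 0.337). The difference between the sexes was 1.74 (0.328, adjusted p = 0.00864). Summed blood endothelial markers, for comparison, overlapped between the female regions (387 to 552 normalized CPM ventrally and 430 to 569 dorsally), and none of the 6 was called. Summed smooth muscle and pericyte markers were separate (745 to 1151 ventrally and 1269 to 1575 dorsally). Of these 6, 3 were called lower ventrally and 1 higher. The part of either list in the change of Igfbp7 was not tested.

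The promoters of these genes, the 250 bases before the RefSeq start in GRCm38.p6, are shown for Igf2 and for the 3 binding proteins called in females, because they carried the changes. All 10 members matched the RefSeq table, with 14 windows in all, as Igf2 has 4 and Igfbp2 has 2 alternative starts. Both strands were searched for the TATA box TATAAA, the GC box GGGCGG and the WT1 and EGR core GCGGGGGCG, the last of which can overlap a GC box. Capitals mark TATA boxes and GC boxes, also where they lie on the other strand.
Igf2, chr7:142657497-142657746, minus strand: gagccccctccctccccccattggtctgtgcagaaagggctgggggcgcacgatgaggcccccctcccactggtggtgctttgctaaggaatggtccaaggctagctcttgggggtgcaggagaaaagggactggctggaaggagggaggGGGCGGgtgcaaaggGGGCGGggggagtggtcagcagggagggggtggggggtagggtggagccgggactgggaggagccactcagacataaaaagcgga
Igfbp4, chr11:99040994-99041243, plus strand: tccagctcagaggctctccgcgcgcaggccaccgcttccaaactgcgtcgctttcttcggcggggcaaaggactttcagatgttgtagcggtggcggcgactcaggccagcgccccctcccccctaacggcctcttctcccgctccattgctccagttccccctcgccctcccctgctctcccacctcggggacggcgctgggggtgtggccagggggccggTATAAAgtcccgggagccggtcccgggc
Igfbp6, chr15:102143936-102144185, plus strand: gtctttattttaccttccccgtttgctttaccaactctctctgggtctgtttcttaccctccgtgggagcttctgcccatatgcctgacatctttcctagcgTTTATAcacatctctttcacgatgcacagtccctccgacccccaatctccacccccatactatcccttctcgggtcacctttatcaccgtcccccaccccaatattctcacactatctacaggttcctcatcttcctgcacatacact
Igfbp7, chr5:77408046-77408295, minus strand: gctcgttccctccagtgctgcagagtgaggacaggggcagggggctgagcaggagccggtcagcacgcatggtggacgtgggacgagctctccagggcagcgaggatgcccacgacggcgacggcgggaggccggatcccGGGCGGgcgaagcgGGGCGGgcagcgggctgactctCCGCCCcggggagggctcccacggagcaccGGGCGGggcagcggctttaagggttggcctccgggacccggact

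The Igfbp4 window holds a TATA box that begins 28 bases before the start, and the Igfbp6 window one on the opposite strand 148 bases before it. The Igfbp7 window holds 4 GC boxes and that of Igf2 holds 2. Among the 14 windows of the members, 2 had a TATA box and 6 a GC box, beside 12.4% and 32.7% of all 32851 windows, and the WT1 and EGR core was found in 1, that of Igf2r, beside 2.57%. The Igf2 window is the one furthest downstream of its 4, and gene-level values do not tell which start was used. GC content of the printed windows ran from 49.6% in Igfbp6 to 74.0% in Igfbp7.

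The other 3 binding proteins were called in no comparison as fitted, although some alternatives called Igfbp5 or Igfbp3. Igfbp5 (chromosome 1, 72857932 to 72874884, minus strand), which binds to extracellular matrix, measured 233, 559 and 294 normalized CPM in female ventral and 261, 130.1 and 60.9 in female dorsal libraries. Its log2 change of 1.39 in females (SE 0.468) just missed a call (adjusted p = 0.0506) and passed under the block (adjusted p = 0.0167). It passed also without female ventral library 1 (adjusted p = 0.0426) and without female dorsal library 1 (1.91, adjusted p = 0.0108), the library rich in atrial markers, which was its highest dorsal value. In males Igfbp5 gave 214, 226, 296 and 292 ventrally and 208, 254 and 328 dorsally, with a change of -0.03 (adjusted p = 0.964). The difference between the sexes of -1.42 was not called (0.558, adjusted p = 0.226), except without that same female library (-1.93, adjusted p = 0.0496).

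Igfbp3 (chromosome 11, 7206086 to 7213923, minus strand), the main IGF carrier of adult serum, held 37.5, 72.8 and 36.9 normalized CPM in female ventral and 38.4, 26.6 and 22.5 in female dorsal libraries. Male libraries gave 43.4, 57.0, 84.7 and 44.7 ventrally and 35.4, 43.2 and 49.0 dorsally. Regions overlapped in both sexes, with log2 changes of 0.69 (0.286, adjusted p = 0.0987) in females and 0.38 (0.239, adjusted p = 0.482) in males. With the block and the GC and length trend removed together, Igfbp3 was called in females (0.80, adjusted p = 0.0497). Igfbp2 (chromosome 1, 72824503 to 72852474, plus strand), whose neighbour 5.5 kb away is Igfbp5, was the most scattered member. It measured 15.8, 26.8 and 21.7 ventrally and 15.9, 13.7 and 46.3 dorsally in females, and 12.3, 24.0, 21.6 and 20.5 ventrally and 6.03, 10.3 and 15.3 dorsally in males. A single female dorsal library, number 3, held its highest value, and the change of -0.05 (adjusted p = 0.938) became 0.48 without it. In males its change of 0.88 was the largest of the 10 members, with the ventral library higher in 3 of 3 pairs, and was not called (0.334, adjusted p = 0.309).

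Compared per kb of transcript, Igf2 was the most abundant member in all 4 groups, at 615 normalized CPM per kb in female ventral and 252 to 259 in the other 3 groups. Igfbp6 came next in female ventral (148), male ventral (212) and male dorsal libraries (174), and overlapped the Igf2 range in both male groups. In female dorsal libraries Igfbp7 took the second place (61.6), apart from its neighbours on both sides. Igf2r, Igfbp5 and Igfbp4 followed at 26.6 to 60.3 in the groups other than female dorsal, where Igfbp4 came later in the order (15.1). Igf1r was the lowest in 3 groups (7.45 to 12.0), and in male dorsal libraries Igfbp2 (8.08) overlapped with it at the bottom. Most other neighbours in the order overlapped in range.

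**Figure D4:**
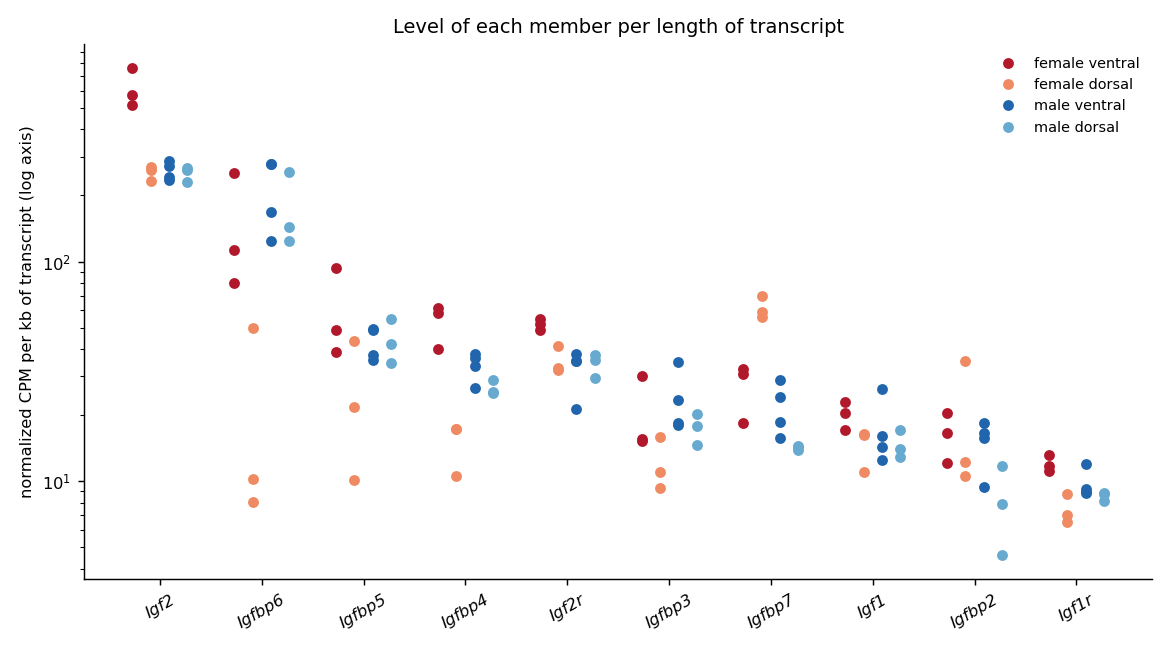
Normalized CPM per kb of the longest coding transcript (vertical axis, log scale) of the 10 members in every library (points), coloured by group and ordered along the horizontal axis by the male ventral mean. Igf2 leads in all groups, and the female dorsal points of Igfbp6 and Igfbp7 leave the order seen in the other groups.

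The makeup of the binding proteins differed as well. Of the summed per-kb level of the 6 binding proteins, Igfbp6 took 43.7% ± 10.3 in female ventral, 14.4% ± 14.5 in female dorsal, 59.6% ± 6.57 in male ventral and 60.1% ± 5.85 in male dorsal libraries (mean ± SD). Igfbp7 took 39.6% ± 3.79 in female dorsal libraries but 8.88% ± 3.01, 6.29% ± 0.368 and 5.27% ± 1.31 in female ventral, male ventral and male dorsal ones. The sum itself was 326 ± 143, 156 ± 13.3, 349 ± 98.7 and 284 ± 85.5 normalized CPM per kb in the same order of groups as for Igfbp6. Female dorsal tissue thus held the least binding protein RNA by this sum, and a different leading one.

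Between the sexes, with region as a covariate, 3 members were called where 10.9% of 15772 genes were (4.40% higher in males and 6.54% higher in females). This fit took same-numbered ventral and dorsal libraries as independent, although they deviated together. With library numbers averaged, 944 genes were called in place of 1726. Igfbp6 was higher in males by 1.85 on the log2 scale (SE 0.504, adjusted p = 0.0273), while Igf2 (-0.66, 0.196, adjusted p = 0.0409) and Igfbp7 (-1.12, 0.274, adjusted p = 0.0160) were lower. Each of these averages over regions that differ in females: the excess of Igf2 came with the female ventral libraries, and those of Igfbp7 and the deficit of Igfbp6 with the female dorsal ones. Of the 10 epicardial markers, 5 were higher in males in the same comparison. Igf2r was not called (-0.40, adjusted p = 0.119), nor were Igf1, Igf1r, Igfbp2, Igfbp3, Igfbp4 and Igfbp5, with changes from -0.57 to 0.39. With the epicardial covariate Igf2 was the one member still called (-1.003, adjusted p = 0.00624), and Igfbp7 was not (-0.94, adjusted p = 0.0962). The call of Igf2 was lost when libraries of one number were averaged and without any one of the 3 female ventral libraries, female dorsal library 3 or any one of the 4 male ventral libraries (log2 changes of -0.71 to -0.51). That of Igfbp6 was lost in the count test (1.60, adjusted p = 0.0856), with the epicardial covariate (0.74, adjusted p = 0.305) and without any one of female ventral library 3, female dorsal libraries 1 and 3 and the 3 male dorsal libraries (1.51 to 1.85).

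Of 37 other genes of the pathway, 34 were tested. In females 17 were called, 11 with the ventral and 6 with the dorsal side higher, beside 27.8% of all genes (14.5% ventrally and 13.3% dorsally). The median log2 change of the 34 was 0.21. With the epicardial covariate none of the 34 was called. Among the proteases and their inhibitors, Pappa, which cuts IGFBP4, rose ventrally from 2.47, 2.42 and 4.07 to 8.27, 10.4 and 21.2 normalized CPM (log2 change 1.76, SE 0.372, adjusted p = 0.00809). Its relative Pappa2 rose from 0.577, 0.626 and 1.72 to 4.72, 15.3 and 29.4 (2.89, 0.550, adjusted p = 0.00517). Stc1, whose product stanniocalcin 1 inhibits PAPP-A, was lower ventrally (-1.11, adjusted p = 0.0242). The other 3 tested genes of this list were not called, although Stc2, a relative of Stc1, passed under the block (0.66, adjusted p = 0.0286, against 0.209 without it).

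Of the insulin receptor and the adaptors near the receptors, 3 of 9 were higher ventrally and 3 higher dorsally in females. The docking proteins Irs1 and Irs2 moved in opposite directions. Irs1 fell ventrally to 4.46, 6.18 and 6.07 normalized CPM from 18.1, 44.9 and 30.9 (-2.22, SE 0.325, adjusted p = 0.00184), and Irs2 rose to 8.58, 15.3 and 11.7 from 2.38, 5.69 and 6.51 (1.18, 0.366, adjusted p = 0.0379). Grb14, an adaptor that restrains the insulin receptor, was lower ventrally (-1.01, adjusted p = 0.0149), and Sos1, an exchange factor for Ras, was higher (0.995, adjusted p = 0.0167). Of 16 kinases and their brakes, 6 were higher ventrally, among them the transcription factor Foxo3 (0.92, adjusted p = 0.0288), and 2 were lower, among them Pdpk1 (-0.69, adjusted p = 0.0103), the kinase that activates AKT. Under the block Foxo1, one of the 6, was no longer called. None of the 3 Igf2bp genes, whose proteins bind the Igf2 messenger, was called in females.

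In males none of the 34 was called (largest change 1.01, for Igf2bp2, adjusted p = 0.285), and Htra1, a secreted protease, passed under the block (0.81, adjusted p = 0.0389). In the test of the difference between the sexes none was called either, and with the block Pappa2 (-2.22, adjusted p = 0.0323), Irs1 (1.43, adjusted p = 0.0415) and Igf2bp2 (1.02, adjusted p = 0.0497) were. Between the sexes 5 of the 34 were called, beside 10.9% of all genes. Of these, 2 were higher in males, Pik3r2 (0.63) and Akt2 (0.61), and 3 were lower, of which Foxo1 (-0.70) and Pik3ca (-0.59) changed most.

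**Figure D5:**
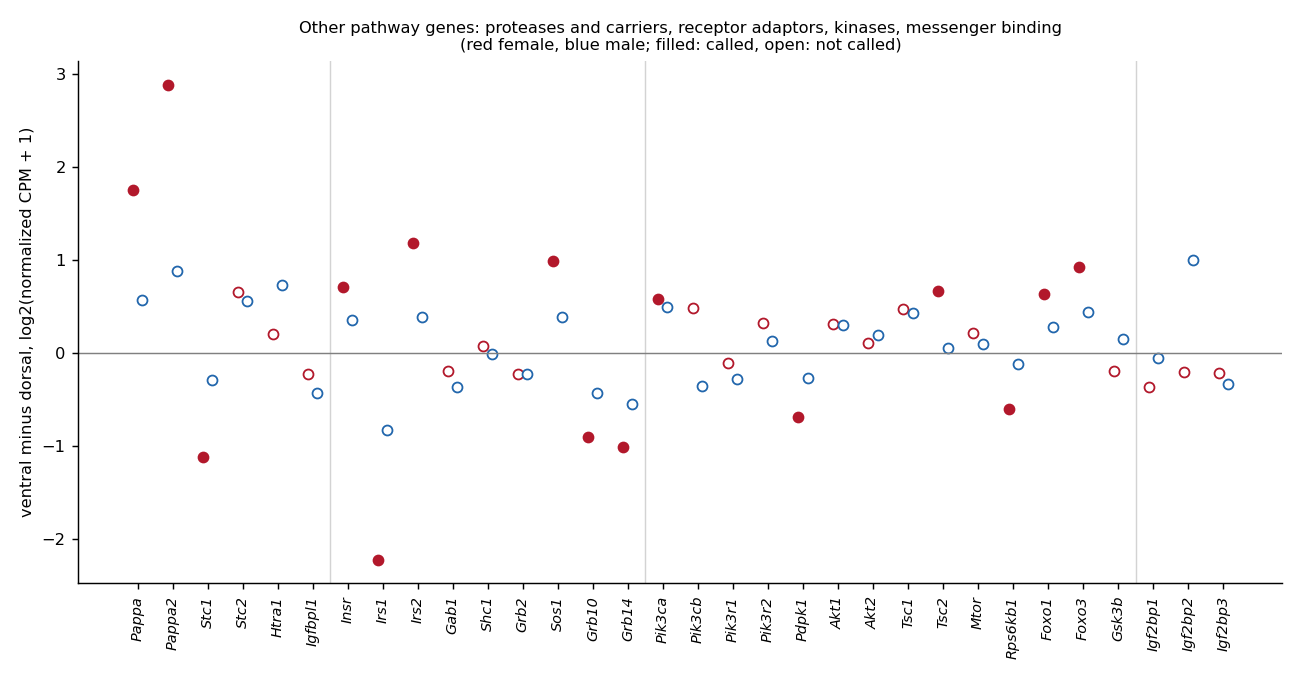
Ventral minus dorsal change (vertical axis, difference of log2(normalized CPM + 1)) of other pathway genes tested, in 4 lists divided by grey lines along the horizontal axis, in females (red) and males (blue); filled points were called. Female points run from -2.22 for Irs1 to 2.89 for Pappa2, and no male point is filled.

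The genes whose levels followed the members most closely were listed as a description, by Pearson's r of log2 values over the 14 libraries among 9571 genes with a mean of at least 10 normalized CPM. The points share regions and depth, so no test was made. Igf2 was followed by mt-Rnr1 (0.96), Sec63 (0.95) and Armcx4 (0.95). Like mt-Rnr2, mt-Rnr1 is a mitochondrial ribosomal RNA that was high in female ventral libraries. Its ventral mean was 11.8 times the dorsal one in females and 0.89 times in males. Igfbp6 was followed by Clic3 (0.98), Slc26a3 (0.98) and Slc23a3 (0.97), and Igfbp4 by Tnks1bp1 (0.98), Col5a1 (0.97) and Rere (0.97). The closest to Igfbp7 were Copz2 (0.97), Rab24 (0.96) and Ccng2 (0.95), whereas for Igf1 and Igfbp2 no gene passed 0.81.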

How the data were processed

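Poly(A) RNA of pooled fetal hearts was sequenced as single reads of 60 bases. Per the labels and the methods, the authors trimmed reads with Cutadapt, estimated counts with RSEM (1.3.1 in the submitters' processing notes) on GRCm38, and normalized them with limma. The deposited signal values behave as (reads + 0.5) divided by the effective library size and scaled to CPM, and 100.0% gave whole reads within 0.02. From them log2(value + 1) was computed, genes at 1 or more in at least 3 libraries of a fit were kept, and regions and sexes were compared with limma 3.58.1 (trended variance, R 4.3.3) with Benjamini-Hochberg adjustment, called under 0.05. No replicate block was used. Same-numbered libraries deviated together over 15772 genes (correlations 0.169 to 0.27 in females and 0.175 to 0.427 in males). Different-numbered pairs gave -0.251 to 0.0374 in females and -0.369 to 0.295 in males. The highest of these was male ventral library 7 with male dorsal library 6. Deviations were taken from the mean of each group, which by itself pushes different-numbered pairs below 0. The pairing comes from the number in the titles, whose meaning neither labels nor methods give.

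Alternatives were a pseudocount of 0.1, no filter, median-of-ratios scaling, removal of the GC and length trend (splines with 5 df), a count test (edgeR 4.0.16) on the recovered reads, the replicate block, averaged library numbers, either region for the unsettled library, each library left out, and an epicardial covariate. Fits were tested on simulated data. The members, lists and tests were chosen with earlier results of these data known. The members, H19 and at most 4 genes by largest change per pathway list were named, and some pathway genes that enter the counts are not reported here by name. Levels per kb used the longest coding transcript of GENCODE M21 in GRCm38, and 3 reads, the limit that a count of 0 allows, correspond to 0.135 to 0.253 normalized CPM, for counting error only. Transcript windows of 60 bases were compared to find shared sequence.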

Additional observations from a re-analysis of the deposited data

Results flagged for a closer look

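The ventral minus dorsal change differed between the sexes for 3 members in the test of the difference itself (limma, adjusted over all genes): male minus female it was -1.22 for Igf2, -1.49 for Igfbp4 and 1.74 for Igfbp7, where 2.73% of all genes were called. With the epicardial covariate the calls of Igf2 (adjusted p = 0.0503) and Igfbp4 (adjusted p = 0.0514) were lost, and that of Igfbp7 was not. The same fit called Igf2r (-1.06, adjusted p = 0.0396), which was not called without the covariate (-0.66, adjusted p = 0.241). The covariate was chosen after the data were seen and nearly equals region in females. Calls lost, kept or gained under it therefore cannot show which differences are epicardial. In females Igf2 and Igfbp4 were called higher ventrally and Igfbp7 higher dorsally, and in males none of the 3 was called. Sex and preparation cannot be told apart in this design.

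In the male ventral group of 4 libraries, 1 library lay far from the other 3 for a pair of receptors. Igf1r was high in library 6, at 136.5 normalized CPM where the others held 101 to 105. Igf2r was low in library 7, at 189.8 where the others held 312 to 336. The 10 members were examined in this group alone, as the other groups have 3 libraries, and 2 were so marked. Chance marks about 1 in 20, and the members share the same 4 libraries.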

How the results depend on the processing

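In females, the epicardial covariate left 22 genes (of 4007) and 0 members (of 6) called, and leaving out single libraries gave 2158 to 3845 genes (fewest without ventral library 2) and 5 to 7 members. Igf2, Igfbp4, Igfbp6 and Igfbp7 were called in 13 of 14 alternatives, Igf1r in 11 and Igf2r in 7. In males 0 genes became 1 with the GC and length trend removed, 76 with the replicate block, 30 with both, and 0 to 12 without single libraries. Between the sexes 1726 genes became 944 with numbers averaged, and members went from 3 to 1 with the epicardial covariate and 1 to 3 without single libraries (1303 to 1859 genes). For the difference in regional change, 431 genes became 804 with the replicate block, 731 with block and trend removal, and 260 to 447 without single libraries (fewest without female dorsal library 2). The pairing gave 8 of 10 members called in females and 4 in the difference, and changed no other member's call. The causes were not tested.

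Changes of uncalled members turned sign. In males these were Igf2 (-0.0199, trend removed), Igf2r (0.0878 with the block, 0.0756 with the covariate), Igfbp6 (-0.0135 with block and trend removal, -0.15 with the covariate) and Igfbp5 (0.0930, unsettled library as dorsal). Between the sexes they were Igf1 (0.11 trend removed, 0.0073 covariate), Igf1r (0.13 trend removed), Igfbp4 (-0.11 trend removed, -0.0283 unsettled library as ventral, -0.37 covariate) and Igfbp5 (-0.14 covariate). Without single libraries, Igfbp2 in females ran from -0.36 to 0.48, Igf1, Igf2, Igf2r and Igfbp5 in males from -0.0344 to 0.32, -0.0245 to 0.0824, -0.20 to 0.0878 and -0.18 to 0.15, Igfbp4 and Igfbp5 between the sexes from -0.13 to 0.19 and -0.0385 to 0.52, and Igfbp3 in the difference from -0.52 to 0.0087.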

Other observations

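The male library whose title says dorsal and whose tissue field says ventral lay within the male ventral range for 4 of the 10 members and within the male dorsal range for 3, and outside both for 5. It was above both ranges for Igf2r (384 normalized CPM) and Igfbp2 (50.03) and below both for Igfbp3 (27.8), Igfbp5 (186) and Igfbp7 (13.1). Its Igf2 was 1187, its Igf1 148, its Igf1r 108, its Igfbp4 99.3 and its Igfbp6 142.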
